A study of Mus musculus with 22 samples.

Results

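A set of 40 genes that work in mitosis was followed through the conversion of mouse embryonic fibroblasts (MEFs) into neural progenitor cells. The set was a named list matched by symbol to the genes of the deposited FPKM tables (FPKM, fragments scaled by transcript length and by the size of the library), with values summed over the transcripts of a gene. All 40 names were found among 22518 genes. Genes were tested where at least 2 libraries reached an FPKM of 1, which 15659 did, and all 40 members were among them. The rule itself uses no measured value, though the list was drawn up with earlier results of these data known. On mm9, the build of the files, Cdc20 lies at chr4:118105506-118109948, Ube2c at chr2:164595429-164598402, Top2a at chr11:98854261-98885503 and Mki67 at chr7:142881471-142908062.

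Poly(A)-selected RNA was sequenced in 22 libraries, 2 for each of 11 groups, all labelled C57BL/6. Induction cultures that began as MEFs were taken on days 1, 4, 7, 10, 14, 17 and 21. The pre-NPC libraries came from primary neurosphere-like clusters, and the giNPC P6 libraries were labelled as an established induced progenitor line at passage 6. Brain-NPC were neural progenitors derived from neonatal brain, and the last group was Teratoma, whose source the labels do not give. The labels name no inducing agent, no uninduced culture and no age of the fibroblasts, and nothing in them tells separate cultures from repeat libraries, so p-values measure the spread between these libraries only.

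During mitosis a cell condenses its replicated chromosomes, attaches them to a bipolar spindle through their kinetochores, separates them and divides its cytoplasm. Cyclin-dependent kinase 1 with cyclins A and B drives entry, the spindle checkpoint holds anaphase until every kinetochore is attached, and the anaphase-promoting complex (APC/C) then marks cyclin B and securin for destruction. Most of these genes are transcribed late in the cell cycle by the MuvB complex with B-Myb and FoxM1, and in cells that have left the cycle they are held down by the DREAM complex. In neural tissue they mark dividing progenitors and are low in neurons.

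The libraries held 3084428 to 9689996 reads in transcripts, and 11045 to 15150 genes reached an FPKM of 1. Sex-linked transcripts set the later cells apart from the induction cultures. Xist, the X-inactivation RNA, was at most 0.196 FPKM in the libraries of days 1 to 21. It was at 30 and 49.4 in the pre-NPC libraries, 64.7 and 2.13 in giNPC P6, 45.3 and 46.5 in Brain-NPC and 3.87 and 4.22 in Teratoma. The Y-linked gene Eif2s3y was at 34.1 to 57.8 FPKM on days 1 to 21, 1.57 and 22.2 in pre-NPC, 0 and 29.8 in giNPC P6 and at most 0.142 in Brain-NPC and Teratoma. The libraries of pre-NPC and of giNPC P6 thus differed within a group, and those of giNPC P6 go against a label of a single line. Without either giNPC P6 library all 40 members were still called higher than in pre-NPC.

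Promoters were examined to describe the list. It was made of genes of which most are transcribed by MuvB, as stated above, so the motif shares are not a result of the changes seen here. Promoters of other genes that moved alike were not examined as a set. RefSeq promoter sequence on GRCm38.p6, 250 bases before to 50 bases after the start, was matched for 34 of the 40 genes, which gave 36 promoters. Those of Aurkb, Ccna2, Foxm1, Incenp, Kif20a and Tpx2 were not used here. The cell-cycle homology region (CHR, searched as TTTGAA on both strands) is the element bound by MuvB, and the CCAAT box (searched as CCAAT on both strands) is bound by NF-Y. The windows shown are those of the cyclin B genes Ccnb1, chr13:100786437-100786736 (minus strand), and Ccnb2, chr9:70421505-70421804 (minus strand), the APC/C activator Cdc20, chr4:118437294-118437593 (minus strand), the kinase genes Plk1, chr7:122159185-122159484 (plus strand), and Cdk1, chr10:69352863-69353162 (minus strand), and the topoisomerase gene Top2a, chr11:99024140-99024439 (minus strand). Each runs 5′ to 3′ on the gene's strand, and capitals mark the CCAAT box and the CHR with its variant TTCGAA, on either strand.
Ccnb1: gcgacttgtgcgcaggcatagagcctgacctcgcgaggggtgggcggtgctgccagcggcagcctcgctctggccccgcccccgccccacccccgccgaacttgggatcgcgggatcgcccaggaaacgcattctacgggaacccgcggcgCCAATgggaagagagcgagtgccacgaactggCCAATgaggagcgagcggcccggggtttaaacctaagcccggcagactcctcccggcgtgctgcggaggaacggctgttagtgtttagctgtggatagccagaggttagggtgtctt
Ccnb2: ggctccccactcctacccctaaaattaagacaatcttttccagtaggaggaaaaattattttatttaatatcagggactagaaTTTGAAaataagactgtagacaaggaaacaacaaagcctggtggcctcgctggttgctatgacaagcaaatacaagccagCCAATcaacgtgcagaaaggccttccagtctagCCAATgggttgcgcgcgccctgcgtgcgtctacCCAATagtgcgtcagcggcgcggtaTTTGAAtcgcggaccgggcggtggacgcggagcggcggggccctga
Cdc20: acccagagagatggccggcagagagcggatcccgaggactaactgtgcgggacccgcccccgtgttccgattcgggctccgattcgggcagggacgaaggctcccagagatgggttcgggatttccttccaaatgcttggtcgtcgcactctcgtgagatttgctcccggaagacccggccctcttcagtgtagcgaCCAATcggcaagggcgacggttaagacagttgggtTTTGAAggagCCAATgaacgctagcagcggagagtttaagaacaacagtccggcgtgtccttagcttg
Plk1: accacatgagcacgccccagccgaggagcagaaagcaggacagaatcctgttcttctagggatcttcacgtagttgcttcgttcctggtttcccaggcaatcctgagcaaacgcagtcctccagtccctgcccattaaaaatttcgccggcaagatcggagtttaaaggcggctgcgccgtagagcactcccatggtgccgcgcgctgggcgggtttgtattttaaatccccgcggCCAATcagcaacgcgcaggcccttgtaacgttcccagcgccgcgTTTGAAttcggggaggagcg
Cdk1: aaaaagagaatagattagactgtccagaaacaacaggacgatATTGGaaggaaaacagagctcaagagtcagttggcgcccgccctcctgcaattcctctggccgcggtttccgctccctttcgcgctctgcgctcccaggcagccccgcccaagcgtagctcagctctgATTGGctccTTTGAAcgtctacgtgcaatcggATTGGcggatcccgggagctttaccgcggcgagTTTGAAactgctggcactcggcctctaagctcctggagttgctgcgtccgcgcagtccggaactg
Top2a: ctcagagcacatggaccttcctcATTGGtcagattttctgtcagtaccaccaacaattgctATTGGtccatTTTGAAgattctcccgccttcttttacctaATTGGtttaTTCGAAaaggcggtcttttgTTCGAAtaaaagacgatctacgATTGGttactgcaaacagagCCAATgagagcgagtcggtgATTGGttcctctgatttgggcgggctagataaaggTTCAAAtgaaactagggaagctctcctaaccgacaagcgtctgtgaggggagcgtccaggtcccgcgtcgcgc
The Cdk1 window holds 2 CHR matches, at positions -71 and -15 from the start, and the Cdc20 window holds 1 at -18 between CCAAT boxes at -53 and -8. The Top2a window holds 6 CCAAT matches. The Ccnb1 window holds 2 CCAAT boxes, at -99 and -67, and no match to either CHR form.

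Over the set, 27 of 36 promoters held the CHR letters, or 75.0%, against 17.9% of 32851 promoters of the same length. The CCAAT letters were in 75.0% of the members' promoters and 37.4% of all, and 2 or more of them were in 52.8% against 11.7%. The variant TTCGAA was in 3 of the 36, those of Bub1, Bub1b and Top2a, or 8.33% against 1.56% of all. An E2F motif, searched on both strands as TTCGCGC or TTGGCGC, was in 13.9% of the members' promoters and 3.89% of all. It was found for Ccnb1, Cdk1, Ect2 and Mki67, and the TTGGCGC form overlaps a CCAAT box at Ccnb1. The members' promoters had a median GC content of 59.0% against 52.7% for all. These are matches of letters and not measured sites, and a gene with more than 1 listed start counts once for each.

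The summed FPKM of the 40 genes was low in the first week of induction, high on days 10 and 14, low again on days 17 and 21, lowest in the neurosphere-like clusters, and high in giNPC P6 and in brain progenitors. It was 367 and 359 on day 1, 397.5 and 373 on day 4, 327 and 316 on day 7, 1042 and 1063 on day 10, 1356 and 1349 on day 14, 407 and 407 on day 17, and 519.5 and 508 on day 21. The pre-NPC libraries summed to 141 and 145, giNPC P6 to 1302 and 1055, Brain-NPC to 1892 and 1883, and Teratoma to 321 and 322. No library of days 10, 14, giNPC P6 or Brain-NPC overlapped any library of the other groups. In bulk RNA, fewer dividing cells and less of these transcripts per cell cannot be told apart. The median absolute log2 difference between the replicates of a group was 0.234 in giNPC P6, 0.217 on day 4, 0.195 on day 7 and in pre-NPC, and 0.0479 to 0.15 in the other groups. In giNPC P6, 35 of 40 genes were higher in replicate 1, with Nusap1 at 48.8 and 26.6 FPKM, Tpx2 at 54.0 and 30.2 and Ube2c at 198 and 131.

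**Figure D1:**
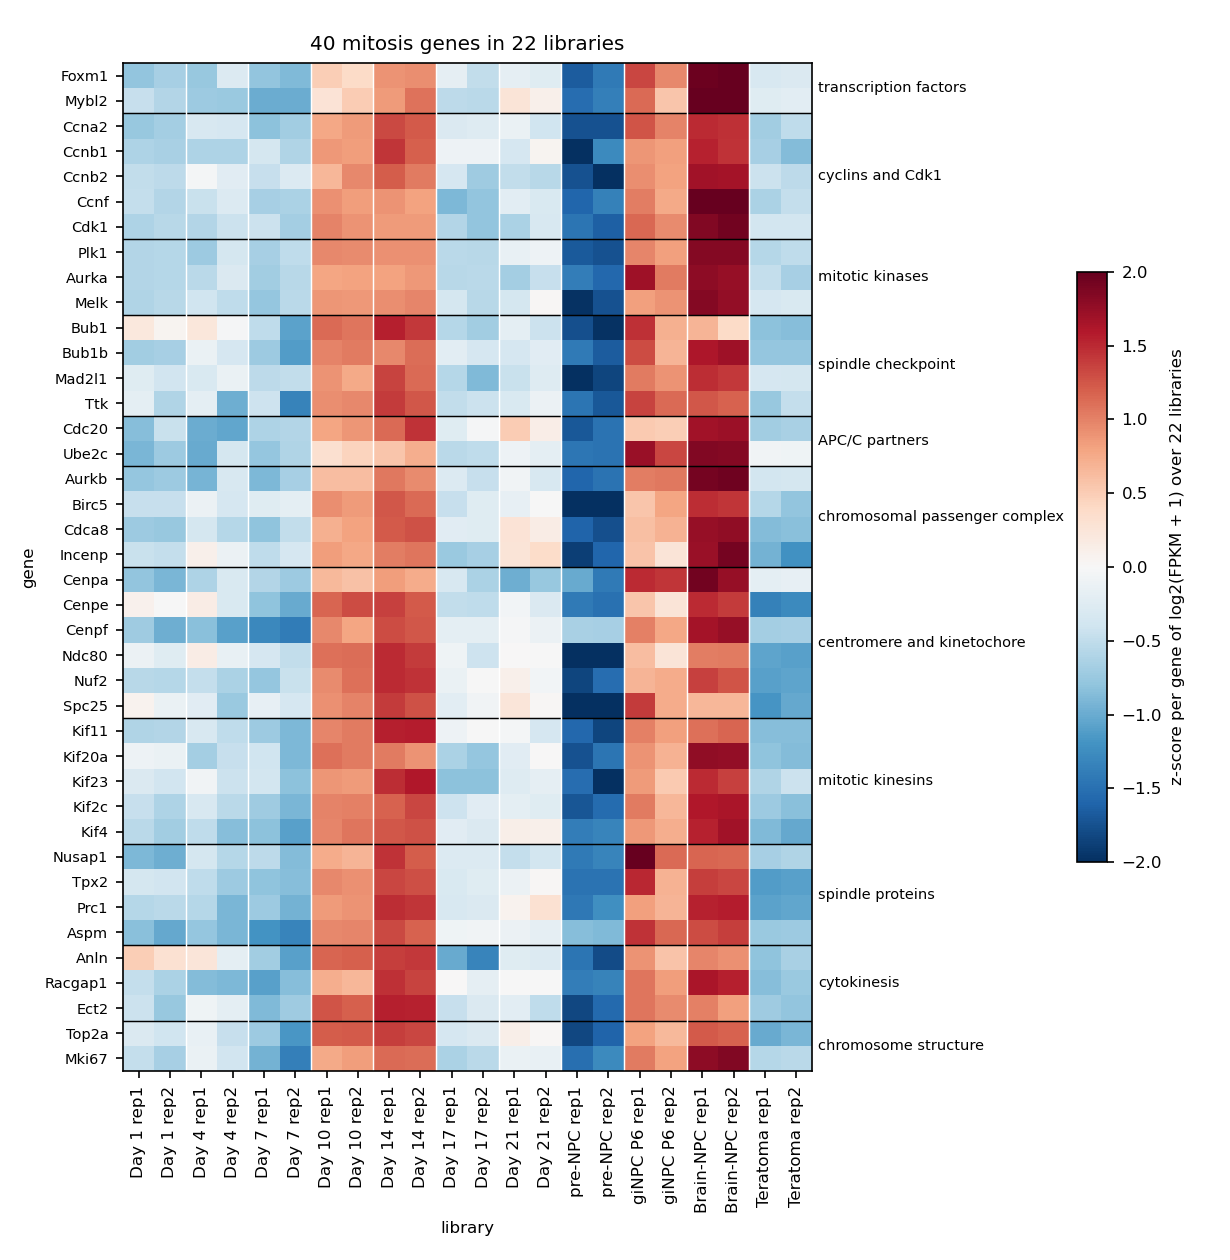
Each row is 1 of the 40 genes, ordered by role, and each column is 1 of the 22 libraries. The colour is the z-score of log2(FPKM + 1) of that gene over all libraries, clipped at -2 and 2. Days 10 and 14, giNPC P6 and Brain-NPC are red in nearly every row, and the pre-NPC columns are the darkest blue in most.

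Brain-NPC had the highest group mean for 29 genes, day 14 for 10 (Bub1, Ttk, Ndc80, Nuf2, Spc25, Kif11, Kif23, Anln, Ect2 and Top2a) and giNPC P6 for 1, Nusap1. Of all genes tested, 16.2% peaked in Brain-NPC, 7.13% on day 14 and 4.71% in giNPC P6. The lowest mean was in pre-NPC for 38 genes, where 13.3% of all genes were lowest, and on day 7 for Cenpf and Aspm, where 10.5% were. Day 14 was the second highest group for 20 genes, giNPC P6 for 11, day 10 for 6 and Brain-NPC for 3. Of all genes tested, the shares were 8.73% for day 14, 11.9% for giNPC P6, 9.09% for day 10 and 8.53% for Brain-NPC.

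The 2 transcription factors followed the set at different levels. Foxm1, which switches on genes of G2 and mitosis, was at 3.15 and 3.58 FPKM on day 1, 3.23 and 5.17 on day 4, 3.12 and 2.84 on day 7, 10.1 and 9.28 on day 10, 14.2 and 14.6 on day 14, 5.64 and 4.19 on day 17, 5.60 and 5.30 on day 21, 1.12 and 1.57 in pre-NPC, 20.3 and 15 in giNPC P6, 33.4 and 34.7 in Brain-NPC, and 4.92 and 5.08 in Teratoma. Brain-NPC stood above every other library, and day 14 did not overlap giNPC P6. Mybl2, which encodes B-Myb, the partner of MuvB, was the lowest member in the clusters, at 0.141 and 0.262 FPKM. It was at 0.617 to 1.29 on days 1 to 7, 2.71 and 3.34 on day 10, 4.43 and 5.35 on day 14, 1.17 and 1.19 on day 17, 2.30 and 2.68 on day 21, 5.50 and 3.44 in giNPC P6, 11.0 and 11.3 in Brain-NPC and 1.65 and 1.69 in Teratoma. For Mybl2 both day 14 libraries lay between the giNPC P6 libraries.

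Among the cyclins and their kinase, Ccnb1, whose product activates Cdk1 at mitotic entry, was at 4.98 and 4.87 FPKM on day 1, 5.03 and 4.98 on day 4, 6.32 and 5.08 on day 7, 16.8 and 16.3 on day 10, 25.8 and 21.5 on day 14, 7.70 and 7.77 on day 17, and 6.35 and 8.80 on day 21. It was at 0.793 and 2.70 in pre-NPC, 16.9 and 16.2 in giNPC P6, 28.0 and 26.2 in Brain-NPC and 4.79 and 4.00 in Teratoma. Day 10 and giNPC P6 overlapped, and the rest of the induction days lay far below them except day 14. Cdk1 itself was at 7.56 to 11.1 FPKM in every library of days 1 to 7, 17 and 21, at 27.0 to 30.1 on days 10 and 14, 34.0 and 29.2 in giNPC P6, 57.3 and 60.1 in Brain-NPC, 4.27 and 3.68 in pre-NPC and 10.7 and 10.6 in Teratoma. Ccna2, the S phase and G2 cyclin, had the highest mean FPKM of the 5 in each group except day 7, where Ccnb2 did, and ran from 5.59 in a pre-NPC library to 84.4 in a Brain-NPC library.

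Of the mitotic kinases, Plk1, which acts at centrosomes, kinetochores and the midbody, was at 7.47 to 10.6 FPKM on days 1 to 7, 34.2 and 33.5 on day 10, 32.5 and 32.8 on day 14, 8.91 and 8.79 on day 17, and 12.8 and 13.3 on day 21. It was at 2.76 and 2.55 in pre-NPC, 34.6 and 30.2 in giNPC P6, 72.8 and 72.5 in Brain-NPC and 8.64 and 9.16 in Teratoma. All 4 libraries of days 10 and 14 lay between the giNPC P6 libraries, and Brain-NPC stood alone above them. Aurka, the kinase of spindle poles, was at 38.0 and 23.5 in giNPC P6 and at 40.6 and 39.3 in Brain-NPC, against at most 20.7 on any induction day.

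Both members that work with the APC/C reached the highest levels of the set, and they differed from each other in giNPC P6. Cdc20, the activator that starts anaphase, was at 10.5 and 16.0 FPKM on day 1, 9.06 and 8.61 on day 4, 13.4 and 13.8 on day 7, 53.7 and 59.3 on day 10, 75.1 and 102 on day 14, 19.6 and 24.3 on day 17, and 41.0 and 28.4 on day 21. It was at 4.12 and 5.30 in pre-NPC, 41.7 and 40.4 in giNPC P6, 128 and 132 in Brain-NPC and 12.4 and 12.9 in Teratoma. One day 21 library lay between the giNPC P6 libraries, and all of them lay below day 10. Ube2c, the ubiquitin-conjugating enzyme of the APC/C, was at 46.4 and 53.0 FPKM on day 10, 59.3 and 70.6 on day 14, 198 and 131 in giNPC P6 and 222 and 218 in Brain-NPC, and at 6.69 to 31.2 in every other library.

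Top2a, the topoisomerase that untangles sister chromatids, was at 25.3 and 23.2 FPKM on day 1, 28.0 and 22.1 on day 4, 17.8 and 12.5 on day 7, 79.7 and 80.8 on day 10, 91.6 and 88.3 on day 14, 24.3 and 25.1 on day 17, and 34.5 and 31.9 on day 21. It was at 7.23 and 8.68 in pre-NPC, 58.6 and 52.0 in giNPC P6, 80.4 and 78.3 in Brain-NPC and 14.2 and 15.3 in Teratoma. Day 10 and Brain-NPC overlapped and day 14 was the highest group. Mki67, which encodes the Ki-67 protein that coats mitotic chromosomes, was at 5.02 to 14.1 on days 1 to 7, 28.2 and 30.2 on day 10, 37.9 and 37.5 on day 14, 9.38 and 10.1 on day 17, 14.1 and 13.9 on day 21, 4.41 and 5.48 in pre-NPC, 35.2 and 29.5 in giNPC P6, 62.4 and 65.0 in Brain-NPC and 9.93 and 10.1 in Teratoma. Anln, the actin-binding anillin of the cleavage furrow, was at 9.79 and 8.72 on day 1. It went through 8.33 and 6.27 on day 4 and 4.48 and 3.38 on day 7 to 14.8 and 15.1 on day 10 and 16.9 and 17.2 on day 14, and then stood at 3.59 and 2.84 on day 17 and 6.11 and 6.01 on day 21. It was at 2.55 and 1.94 in pre-NPC, 12.6 and 10.3 in giNPC P6, 13.2 and 12.7 in Brain-NPC and 4.16 and 4.65 in Teratoma, so both progenitor groups lay below days 10 and 14.

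**Figure D2:**
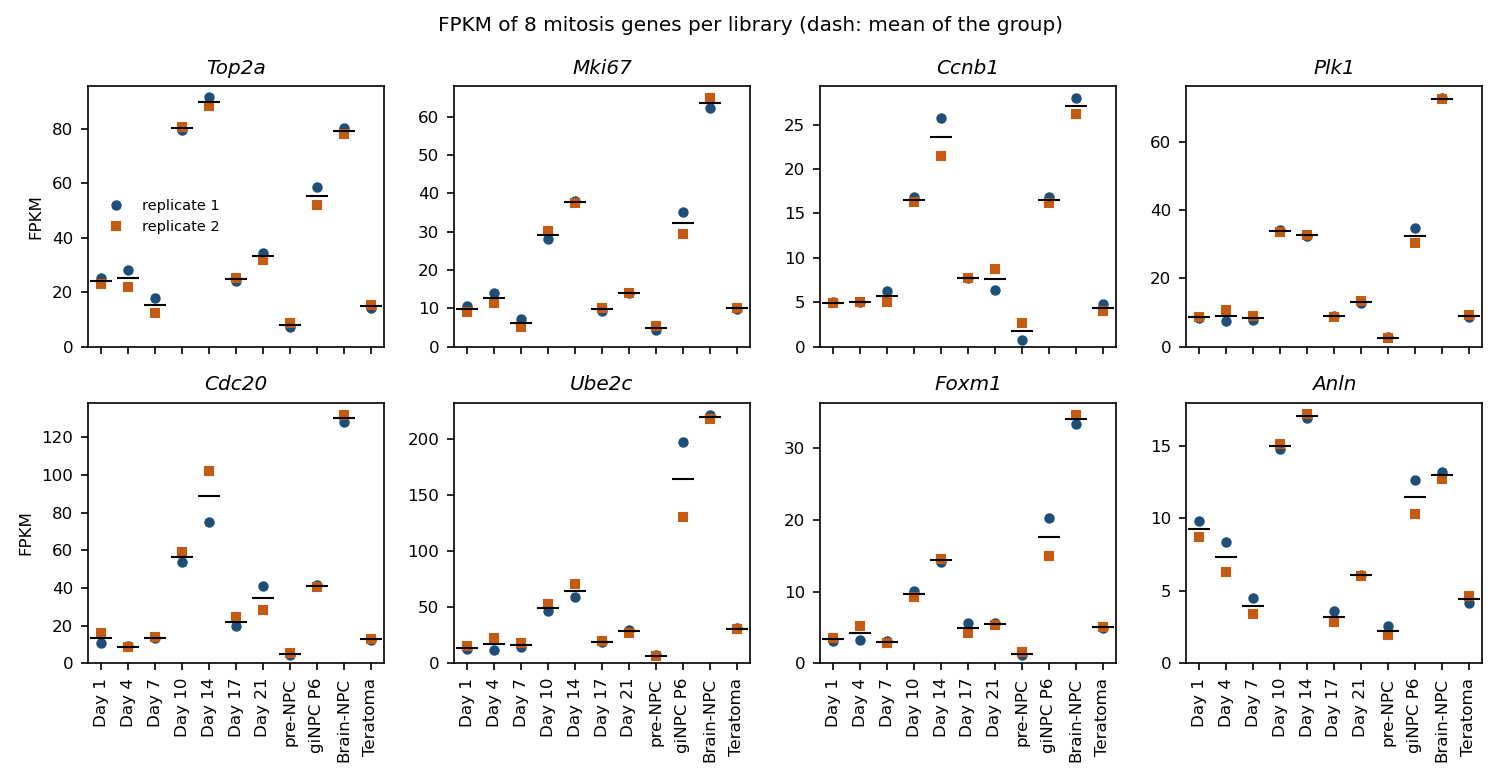
FPKM on a linear axis that starts at 0 is shown for 8 of the genes in each library, by group. Circles are replicate 1, squares are replicate 2 and the dash is the group mean. Top2a and Anln peak on day 14, and the other 6 peak in Brain-NPC, with Cdc20 in giNPC P6 (41.7 and 40.4) well under day 14 (75.1 and 102).

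Differences between groups were tested with limma on log2(FPKM + 1), over all 15659 genes, and a gene was called when its Benjamini-Hochberg adjusted p was under 0.05 and its change at least 2-fold on that scale, which understates the change of low genes. Errors of log2 fold changes are standard errors of that fit. Counts of members without the fold threshold are given below with no share of all genes at that threshold. The shares of all genes that are printed use both thresholds and cannot be set against those counts. Neighbouring comparisons share a group and are not independent of each other. Scaling the FPKM by TMM factors instead of using them as deposited moved the median log2 fold change of all genes by 0.13 from day 7 to day 10, 0.18 from day 1 to day 14 and 0.12 from day 1 to day 21. It moved that median by under 0.1 in the other comparisons. The members' median moved further, from 1.588 to 1.345 for day 10 against day 7 and from 1.744 to 1.445 for day 14 against day 1. For day 21 against day 1 it went from 0.3986 to 0.1523, and for giNPC P6 against pre-NPC from 2.522 to 2.322.

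**Figure D3:**
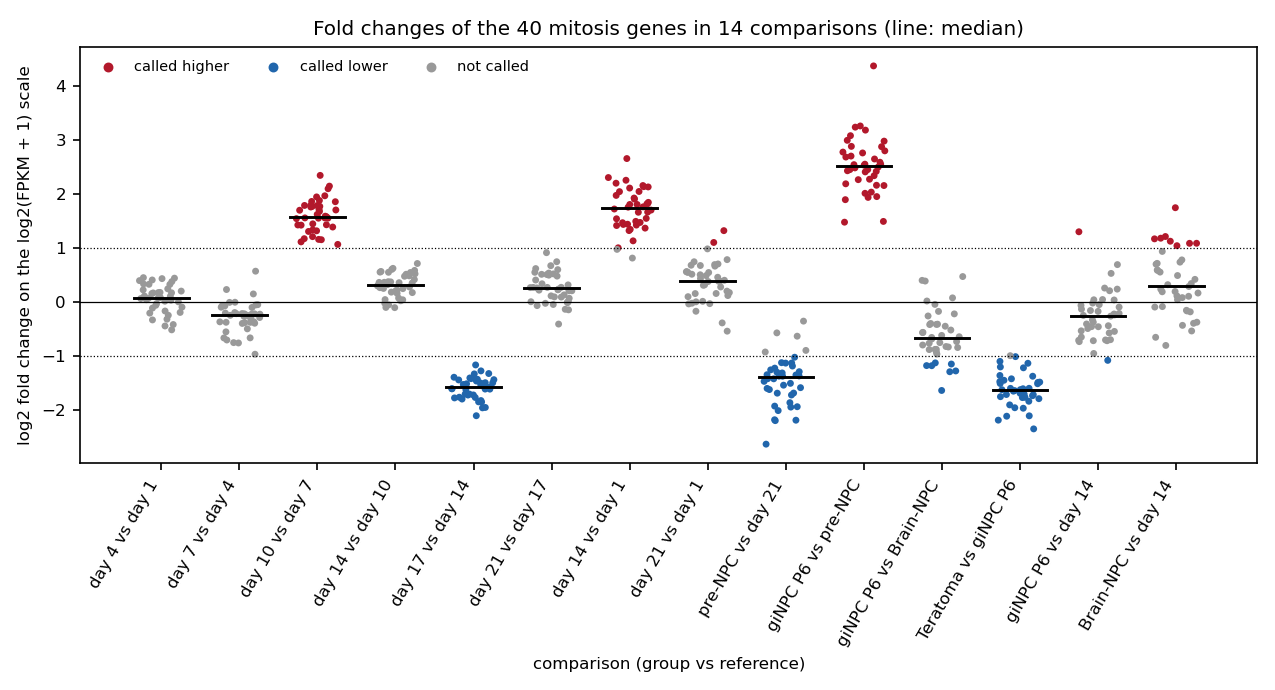
Each point is the log2 fold change, on the log2(FPKM + 1) scale, of 1 of the 40 genes in 1 of 14 comparisons. Red points were called higher, blue points lower and grey points not called, the black line is the median and dotted lines mark a 2-fold change. All 40 points are red for day 10 against day 7 and blue for day 17 against day 14.

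No member was called in either direction in the steps from day 1 to day 4 and from day 4 to day 7. Day 7 was not tested against day 1. From day 1 to day 4 limma called 0 of 40 higher, where 6.95% of all genes were called higher, and 0 lower, where 0.843% were. Without the fold threshold 3 were higher and 2 lower at an adjusted p under 0.05, and 10 and 4 at an unadjusted one. On counts edgeR and DESeq2 called 0, and the median log2 fold change was 0.08 as deposited and -0.06 with TMM scaling. Ccna2 went from 13.4 and 14.4 FPKM to 19.4 and 19.2, a log2 difference of 0.45 ± 0.11 with an adjusted p of 0.00845. The groups did not overlap, and the change stayed under 2-fold. Over the same days all 10 macrophage markers were called higher, and their summed level went from 901 to 906 FPKM to 9350 to 11700. The part of that change in the members' values was not tested.

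From day 4 to day 7 limma called 0 members lower, where 0.3% of all genes were, and 0 higher, where 1.28% were. Without the fold threshold 10 were lower and 0 higher at an adjusted p under 0.05, and 16 and 1 at an unadjusted one. The median log2 fold change was -0.24, with 37 of 40 below 0. Mki67 came nearest to a call, from 14.1 and 11.5 FPKM to 7.22 and 5.02, a log2 difference of -0.96 ± 0.14 (adjusted p = 0.000564). Its groups did not overlap. edgeR and DESeq2 on counts, and limma with a pseudocount of 0.1, called Mki67 alone lower, as did limma without day 4 replicate 2 or without day 7 replicate 1. Bub1, a kinase of the spindle checkpoint, went from 5.72 and 4.82 to 3.36 and 2.14, and Anln from 8.33 and 6.27 to 4.48 and 3.38, both under a 2-fold change on this scale. Cdc20 differed in sign from most, at 9.06 and 8.61 on day 4 and 13.4 and 13.8 on day 7, with a log2 difference of 0.57 ± 0.20 and an adjusted p of 0.0651.

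From day 7 to day 10 all 40 genes were called higher, where 7.34% of all genes tested were, and 0 lower, where 2.04% were. The median log2 fold change was 1.59, against 0.12 for all genes, and the ratio of mean FPKM ran from 2.19 for Ccnb2 to 7.42 for Cenpf. Top2a rose from 17.8 and 12.5 FPKM to 79.7 and 80.8, a log2 fold change of 2.35 ± 0.14 (adjusted p = 1.03e-08). Cenpf, a large kinetochore protein of G2 and mitosis, rose from 1.24 and 1.08 to 9.19 and 8.02 (2.15 ± 0.12, adjusted p = 8.18e-09). Mki67 rose from 7.22 and 5.02 to 28.2 and 30.2 (2.10 ± 0.14, adjusted p = 4.52e-08). In these 3 genes each day 10 library lay far above both day 7 libraries.

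The rise covered every role. Both chromosome structure genes rose by 2.10 to 2.35 on the log2 scale, and the 3 cytokinesis genes Anln, Racgap1 and Ect2, which build and signal to the contractile ring, by 1.68 to 1.71. The 5 kinesins, motors that slide and depolymerise spindle microtubules, rose by 1.22 to 1.86, and the 3 kinases by 1.43 to 1.89. The 4 checkpoint genes rose by 1.16 to 1.87, with Mad2l1, the diffusible inhibitor of Cdc20, the least of them. The chromosomal passenger complex, which corrects faulty attachments, ranged from Incenp at 1.12 to its kinase Aurkb at 1.78. With TMM scaling 34 of 40 were called, and Ccnb2, Mad2l1, Birc5, Incenp, Spc25 and Kif23 stayed under 2-fold, at 0.80 to 0.96. Over all genes that scaling called 757 higher and 601 lower, against 1150 and 319 as deposited. edgeR called 28 of the 35 members it tested.

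In the same interval 9 of 10 neural progenitor markers were called higher, and their sum went from 186 to 205 FPKM to 2590 in both libraries. Hes5 was the marker of that list at 0 on day 7. Of 10 macrophage markers 1 was called lower, with a sum of 13200 to 13300 on day 7 and 5440 to 5660 on day 10. Most of that sum was Lyz2, which was lower on day 10, while Csf1r changed little and Emr1 was higher. The median log2 fold change of the 10 markers was -0.186. Fibroblast markers had 2 of 11 lower, with sums of 3140 to 3520 and 2260 to 2380. The part of these changes in the members' rise was not tested.

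From day 10 to day 14 the levels stayed high. limma called 0 members higher, where 2.91% of all genes were, and 0 lower, where 8.55% were. Without the fold threshold 13 were higher and 0 lower at an adjusted p under 0.05, and 18 and 0 at an unadjusted one. The median log2 fold change was 0.32. Racgap1, the GTPase-activating subunit of centralspindlin, went from 33.5 and 31.8 FPKM to 56.7 and 52.0, a log2 difference of 0.72 ± 0.10 (adjusted p = 6.29e-05). Its libraries did not overlap, and the change was under 2-fold. edgeR and DESeq2 called 1 member higher, Birc5, whose counts hold under 0.5 of the reads its FPKM implies. Over these days all 10 macrophage markers and 10 of 11 fibroblast markers were called lower, with sums falling to 1070 to 1080 and 633 to 649 FPKM, and the part of that in the members' values was not tested.

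From day 14 to day 17 all 40 genes were called lower, where 6.37% of all genes were, and 0 higher, where 4.96% were. The median log2 fold change was -1.58, against -0.01 for all genes, and the mean FPKM on day 17 was between 0.189 and 0.389 of that on day 14. Anln fell from 16.9 and 17.2 FPKM to 3.59 and 2.84, a log2 fold change of -2.10 ± 0.15 (adjusted p = 8.72e-08). Cdc20 fell from 75.1 and 102 to 19.6 and 24.3 (-1.96 ± 0.20, adjusted p = 2.11e-06). Kif23, the motor of centralspindlin, fell from 20.6 and 22.1 to 4.75 and 4.79 (-1.95 ± 0.15, adjusted p = 2.23e-07). No day 17 library reached any day 14 library in these genes.

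By role, the medians of the fall lay between -1.40 for the kinases and -1.83 for the chromosome structure genes and for the APC/C partners. On the log2(FPKM + 1) scale the smallest fall was that of Aspm, a spindle pole protein of dividing neural progenitors. It went from 8.33 and 7.56 to 2.97 and 3.01 FPKM (-1.16 ± 0.11). TMM scaling also called all 40, and each fit without 1 library did so too. edgeR called 34 of 35 tested. Neural progenitor markers summed to 5430 to 5450 FPKM on day 14 and 6830 to 6980 on day 17, with 2 of 10 called higher and 1 lower. All 6 astrocyte markers were called higher over these days. Macrophage markers were called lower for 9 of 10, with a day 17 sum of 291 to 341, and fibroblast markers for 5 of 11, with a sum of 274 to 313. The part of those falls in the members' was not tested.

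From day 17 to day 21 limma called 0 members higher, where 2.7% of all genes were, and 0 lower, where 2.29% were. Without the fold threshold 12 were higher and 0 lower at an adjusted p under 0.05, and 17 and 1 at an unadjusted one. The median log2 fold change was 0.25. Incenp, the scaffold of the chromosomal passenger complex, went from 12.1 and 12.7 to 23.6 and 25.2 FPKM, a log2 difference of 0.92 ± 0.12 (adjusted p = 7.83e-05), and its libraries did not overlap. On counts edgeR called Anln higher and DESeq2 called Anln and Incenp, and with a pseudocount of 0.1 limma called Mybl2. Cenpa, the histone H3 variant of centromeres, went the other way, from 10.6 and 8.29 to 6.22 and 7.50 (log2 difference -0.41 ± 0.15, adjusted p = 0.0631).

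Against day 1, 38 of 40 genes were called higher on day 14, where 15.7% of all genes were, and 0 lower, where 6.96% were. The median log2 fold change was 1.74, against 0.20 for all genes. Cdc20 stood at 75.1 and 102 FPKM against 10.5 and 16.0 (2.66 ± 0.20, adjusted p = 2.58e-08). Cdca8, or borealin, of the chromosomal passenger complex stood at 67.7 and 70.7 against 13.3 and 13.1 (2.31 ± 0.12, adjusted p = 3.62e-10), and Ccna2 at 73.2 and 67.9 against 13.4 and 14.4 (2.26 ± 0.11, adjusted p = 3.52e-10). The day 14 libraries were far above those of day 1 in each. The genes not called were Anln, at 16.9 and 17.2 against 9.79 and 8.72, and Kif20a, a kinesin of the central spindle, at 26.6 and 24.4 against 12.6 and 12.3, both without overlap. TMM scaling called 36, and over all genes it called 1792 higher and 1527 lower in place of 2452 and 1090. Fibroblast markers were called lower for 11 of 11, with sums of 5990 to 6160 FPKM on day 1 and 633 to 649 on day 14.

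By day 21 little of that difference was called. Against day 1, 2 of 40 genes were called higher, where 18.3% of all genes were, and 0 lower, where 10.2% were. The genes were Cdc20, at 41.0 and 28.4 FPKM against 10.5 and 16.0 (1.33 ± 0.20, adjusted p = 3e-05), and Cdca8, at 31.1 and 28.0 against 13.3 and 13.1 (1.11 ± 0.12, adjusted p = 8.38e-07). TMM scaling, edgeR and DESeq2 each called Cdc20 alone, with Cdca8 at 0.83, 0.79 and 0.78. Without the fold threshold 22 members were higher and 1 lower at an adjusted p under 0.05, and 25 and 1 at an unadjusted one. The median was 0.40 as deposited and 0.15 with TMM scaling. Anln was the 1 lower, at 6.11 and 6.01 against 9.79 and 8.72 (log2 difference -0.54 ± 0.15, adjusted p = 0.00597). Over all genes, TMM scaling called 2323 higher and 2194 lower in place of 2871 and 1605.

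The neurosphere-like clusters were compared with the day 21 culture. Xist was at 0.0848 and 0.0336 FPKM on day 21 and at 30 and 49.4 in pre-NPC. The clusters therefore cannot be read as the same cells at a later time, and the part of that in the members' difference was not tested. In pre-NPC 35 of 40 genes were called lower, where 8.21% of all genes were, and 0 higher, where 4.05% were, with a median log2 fold change of -1.40 against -0.03 for all genes. Cdc20 stood at 4.12 and 5.30 FPKM against 41.0 and 28.4 (-2.63 ± 0.20, adjusted p = 1.33e-07). Birc5, or survivin, stood at 5.94 and 5.31 against 27.6 and 31.1 (-2.19 ± 0.12, adjusted p = 4.97e-09), and Cdca8 at 6.14 and 5.29 against 31.1 and 28.0 (-2.19 ± 0.12, adjusted p = 4.97e-09). Both belong to the chromosomal passenger complex, whose 4 members were all lower, with log2 fold changes of -2.19 to -1.69. On counts Birc5 was not called (edgeR adjusted p = 0.172).

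The genes not called were Aurka, Nusap1, Aspm, Cenpf and Cenpa. Nusap1, which binds microtubules near chromosomes, stood at 4.15 and 4.47 against 8.51 and 9.24 FPKM. Cenpf stood at 2.44 and 2.40 against 4.24 and 3.91, and Cenpa at 6.12 and 4.29 against 6.22 and 7.50 (-0.35 ± 0.15, adjusted p = 0.075). These 5 were all lower in mean, and pre-NPC overlapped day 21 in none of them, though for Cenpa by a narrow margin. In the clusters 7 of 10 macrophage and 9 of 11 fibroblast markers were called lower, and 4 of 6 oligodendrocyte markers higher, with sums of 213 to 296 FPKM against 83.5 to 83.9. Their part in the members' lower levels was not tested. TMM scaling called 34 members, and 816 higher and 1034 lower of all genes in place of 634 and 1285.

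In giNPC P6 all 40 genes were called higher than in the clusters, where 6.87% of all genes were, and 0 lower, where 5.9% were. The median log2 fold change was 2.52, against 0.00 for all genes, and the ratio of mean FPKM ran from 3.59 for Cenpf to 24.2 for Ube2c. Ube2c stood at 198 and 131 FPKM against 6.92 and 6.69 (4.38 ± 0.24, adjusted p = 4.43e-09). Ccna2 stood at 69.5 and 56.2 against 5.62 and 5.59 (3.27 ± 0.11, adjusted p = 7.22e-11). Aurkb, the kinase of the chromosomal passenger complex, stood at 24.8 and 25.6 against 1.63 and 1.91 (3.24 ± 0.19, adjusted p = 8.8e-09). The libraries were far apart in each. The smallest differences were those of the kinetochore proteins Cenpe, a kinesin, at 7.72 and 6.35 against 1.93 and 1.80, and Cenpf, at 9.43 and 7.93 against 2.44 and 2.40. TMM scaling called all 40 as well, and over all genes 669 higher and 1325 lower in place of 1075 and 924. Neural progenitor markers summed to 2880 to 4160 FPKM in the clusters and 4630 to 6260 in giNPC P6, with 2 of 10 called higher. Markers of other cell types differed as well, most of those called in the opposite direction to the members. Of the macrophage markers 8 of 10 were called lower, with sums of 69.5 to 135 in the clusters and 2.74 to 22.1 FPKM in giNPC P6, and of the fibroblast markers 8 of 11, with sums of 124 to 213 and 23.6 to 25.4. Oligodendrocyte markers had 5 of 6 called lower, with sums of 213 to 296 and 38.6 to 50.3. Astrocyte markers had 2 of 6 called lower, and neuron markers 3 of 8 higher. Xist and Eif2s3y also differed between the libraries of each group. The part of these transcripts and of the markers in the members' difference was not tested.

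giNPC P6 was then set against progenitors from brain. Here 7 of 40 genes were called lower in giNPC P6, where 5.38% of all genes were, and 0 higher, where 4.61% were. The median log2 fold change was -0.67, against 0.00 for all genes, and 35 of 40 were below 0. Without the fold threshold 29 were lower and 0 higher at an adjusted p under 0.05, and 30 and 2 at an unadjusted one. Cdc20 stood at 41.7 and 40.4 FPKM against 128 and 132 (-1.64 ± 0.20, adjusted p = 1.57e-05). Cdca8 stood at 40.6 and 43.8 against 104 and 106 (-1.29 ± 0.12, adjusted p = 1.06e-06) and Incenp at 28.9 and 23.5 against 61.0 and 68.3 (-1.27 ± 0.12, adjusted p = 1.97e-06). No giNPC P6 library came near a Brain-NPC library in these 3.

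The other called genes were Mybl2, at 5.50 and 3.44 against 11.0 and 11.3, the cyclin Ccnf, at 17.3 and 14.1 against 36.7 and 36.3, Plk1, at 34.6 and 30.2 against 72.8 and 72.5, and Aurkb, at 24.8 and 25.6 against 55.6 and 56.7 FPKM. Mybl2 lost its call without giNPC P6 replicate 2 (-0.90) and when only the 4 libraries compared were fitted (adjusted p = 0.0566), and Foxm1 and Mki67 gained one without replicate 1. Of the chromosomal passenger complex 3 of 4 were called, and of the 6 centromere and kinetochore genes, 5 kinesins and 4 checkpoint genes, 0 were. Neuron markers were called higher in giNPC P6 for 4 of 8, with sums of 147 to 210 FPKM against 79.7 to 80.2, and neural progenitor markers lower for 2 of 10, and their part in the members' difference was not tested. TMM scaling called 9, adding Foxm1 and Mki67, and over all genes it called 555 higher and 1050 lower in place of 722 and 842.

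The members whose mean was higher in giNPC P6 were Bub1, Ttk, Spc25, Nusap1 and Ect2, none of them called. All 5 are among the 8 members for which the FPKM tables list several transcripts, and 0 of the 32 with a single transcript had a higher mean. Nusap1 was at 48.8 and 26.6 FPKM against 27.2 and 26.9, and Spc25, of the Ndc80 complex, at 61.3 and 39.1 against 37.1 and 37.1. The medians were 0.05 for the 8 and -0.74 for the 32, a split made after the values were seen, and the part of transcript assignment in it was not tested.

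**Figure D4:**
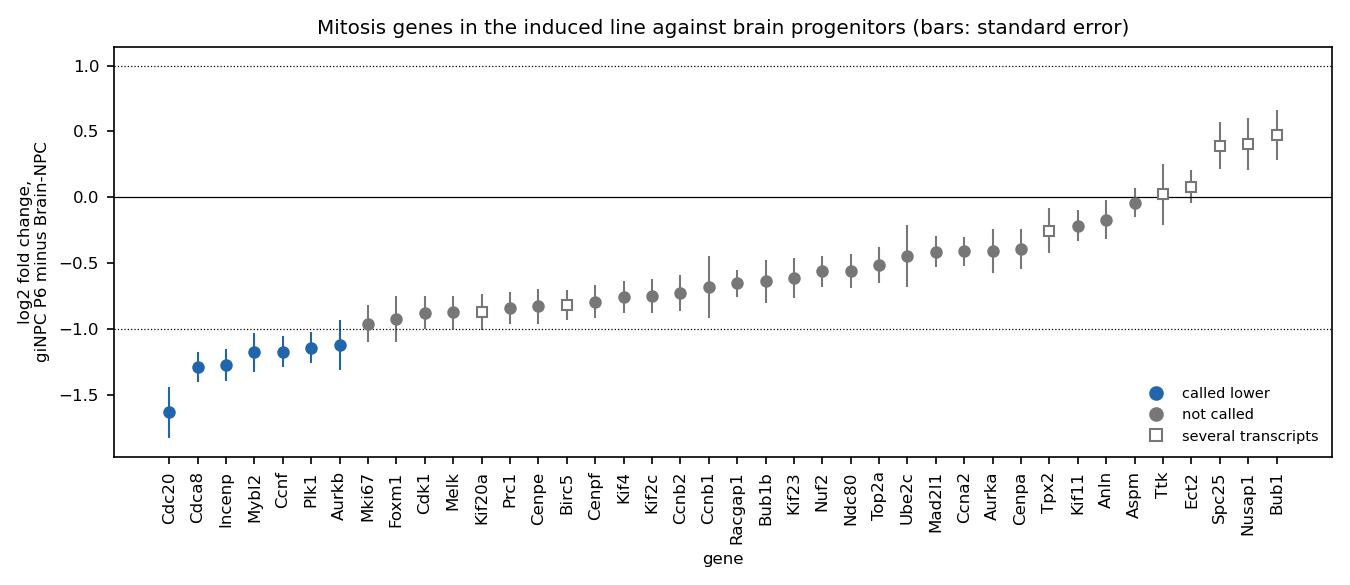
For each of the 40 genes, in order, the point is the log2 fold change on the log2(FPKM + 1) scale of giNPC P6 minus Brain-NPC and the bar its standard error. Blue points were called lower, open squares are the genes with several transcripts, and dotted lines mark a 2-fold change. The 7 called genes run from Cdc20 at -1.64 to Aurkb at -1.12, and the 5 points above 0 are all open squares.

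In Teratoma 39 of 40 genes were called lower than in giNPC P6, where 5.98% of all genes were, and 0 higher, where 30% were. The median log2 fold change was -1.63, against 0.18 for all genes. Ube2c stood at 31.2 and 30.6 FPKM against 198 and 131 (-2.35 ± 0.24, adjusted p = 3.63e-07). Tpx2, which nucleates spindle microtubules and activates Aurora A, stood at 8.01 and 8.21 against 54.0 and 30.2 (-2.19 ± 0.17, adjusted p = 2.02e-08), and Nusap1 at 7.38 and 7.78 against 48.8 and 26.6 (-2.11 ± 0.20, adjusted p = 1.27e-07). The groups were far apart in each. Kif23, at 5.56 and 6.21 against 14.0 and 11.5, was just under 2-fold (-0.99 ± 0.15). Teratoma held markers of many other cell types: 7 of 7 epithelial, 6 of 6 striated muscle, 5 of 5 endothelial, 11 of 11 fibroblast and 10 of 10 macrophage markers were called higher. Epithelial markers summed to 574 to 578 FPKM against 0.232 to 0.235, with 4 of 7 at 0 in giNPC P6, and muscle markers to 612 to 631 against 0.495 to 0.851, while fibroblast and macrophage markers summed to 23.6 to 25.4 and 2.74 to 22.1 in giNPC P6. All 10 neural progenitor markers were called lower, and the part of cell makeup in the members' difference was not tested.

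Day 14, the highest induction day, was also set against both progenitor groups, a choice made after the levels were seen. Between giNPC P6 and day 14, 1 gene was called higher, where 4.85% of all genes were, and 1 lower, where 9.34% were. At an adjusted p under 0.05 without the fold threshold 17 were lower and 3 higher, and 31 of 40 were below 0, with a median of -0.25. Ube2c was higher, at 198 and 131 against 59.3 and 70.6 FPKM (1.30 ± 0.24, adjusted p = 0.000397), and Cdc20 lower, at 41.7 and 40.4 against 75.1 and 102 (-1.08 ± 0.20, adjusted p = 0.00039). Cdc20 lost its call without day 14 replicate 2 (-0.86) and with edgeR or DESeq2 (-0.76 and -0.81), and Ube2c lost it when only the 4 libraries compared were fitted (adjusted p = 0.051). The libraries of both genes did not overlap, and Ndc80, the microtubule-binding subunit at kinetochores, was at 13.1 and 10.1 against 23.9 and 22.4 (-0.95 ± 0.13).

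Brain-NPC had 8 genes called higher than day 14, where 9.44% of all genes were, and 0 lower, where 12.4% were. Without the fold threshold 21 were higher and 6 lower at an adjusted p under 0.05, and 22 and 6 at an unadjusted one. With both thresholds edgeR and DESeq2 called 9 higher and 0 lower. Ube2c (1.75 ± 0.24), Ccnf (1.22 ± 0.12) and Foxm1 (1.19 ± 0.18) led, followed by Aurkb, Plk1, Cenpa, Cdk1 and Mybl2. Cenpa stood at 58.3 and 51.0 against 25.9 and 24.2 FPKM. Bub1 was the furthest below day 14, at 7.74 and 6.39 against 13.6 and 12.5 (-0.80 ± 0.19, adjusted p = 0.00223), and it has several transcripts. Against day 14, macrophage markers were called lower for 10 of 10 in both giNPC P6 and Brain-NPC, and fibroblast markers for 11 of 11 and 9 of 11. Macrophage markers summed to 1070 to 1080 FPKM on day 14 and at most 22.1 in the progenitors, and fibroblast markers to 633 to 649 and at most 49.5. Their part in these differences was not tested. Cenpa was not called without Brain-NPC replicate 1 and Mybl2 without day 14 replicate 1.

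Other genes of cell division were counted by list. From day 7 to day 10, where 7.34% of all genes were called higher, 24 of 27 further spindle, motor and cytokinesis genes, 14 of 33 kinetochore and centromere genes, 9 of 19 regulators of entry and exit, and 6 of 8 condensin subunits were called higher. Fam64a, a mitotic substrate of the APC/C, went from a mean of 4.79 to 24.2 FPKM (2.13 ± 0.13), Spc24, the partner of Spc25, from 2.17 to 11.3 (1.95 ± 0.16), and the condensin subunit Ncapd2 from 6.15 to 35.6 (2.36 ± 0.13). Of 20 genes of the MCM helicase and S phase 13 were called higher, led by Mcm2, from 11.2 and 9.66 to 37.0 and 35.7. Of the rest, 0 of 12 APC/C core subunits, 1 of 12 MuvB and DREAM components, which was Mybl1, and 2 of 10 cohesin genes were called, with median log2 fold changes of 0.36, 0.43 and 0.67.

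From day 14 to day 17 the same lists had 21 of 27, 23 of 33, 14 of 19 and 6 of 8 genes called lower, where 6.37% of all genes were. S phase genes had 19 of 20 called lower, with Gins2, of the replicative helicase, from a mean of 35.0 to 7.28 FPKM (-2.12 ± 0.11). APC/C core subunits had 0 of 12 called, with a median of -0.03, and cohesin genes 1 of 10, which was Esco2, the S phase acetyltransferase of cohesin. In the clusters against day 21, 19 of 20 S phase genes were called lower, where 8.21% of all genes were, with Mcm5 at 0.676 and 1.77 against 17.0 and 18.7 FPKM, and in giNPC P6 against the clusters 20 of 20 were called higher, where 6.87% of all genes were. Between giNPC P6 and brain progenitors 11 of 20 S phase genes were called lower, where 5.38% of all genes were, at a median of -1.05, with Pcna at 111 and 87.3 against 196 and 196 FPKM.

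**Figure D5:**
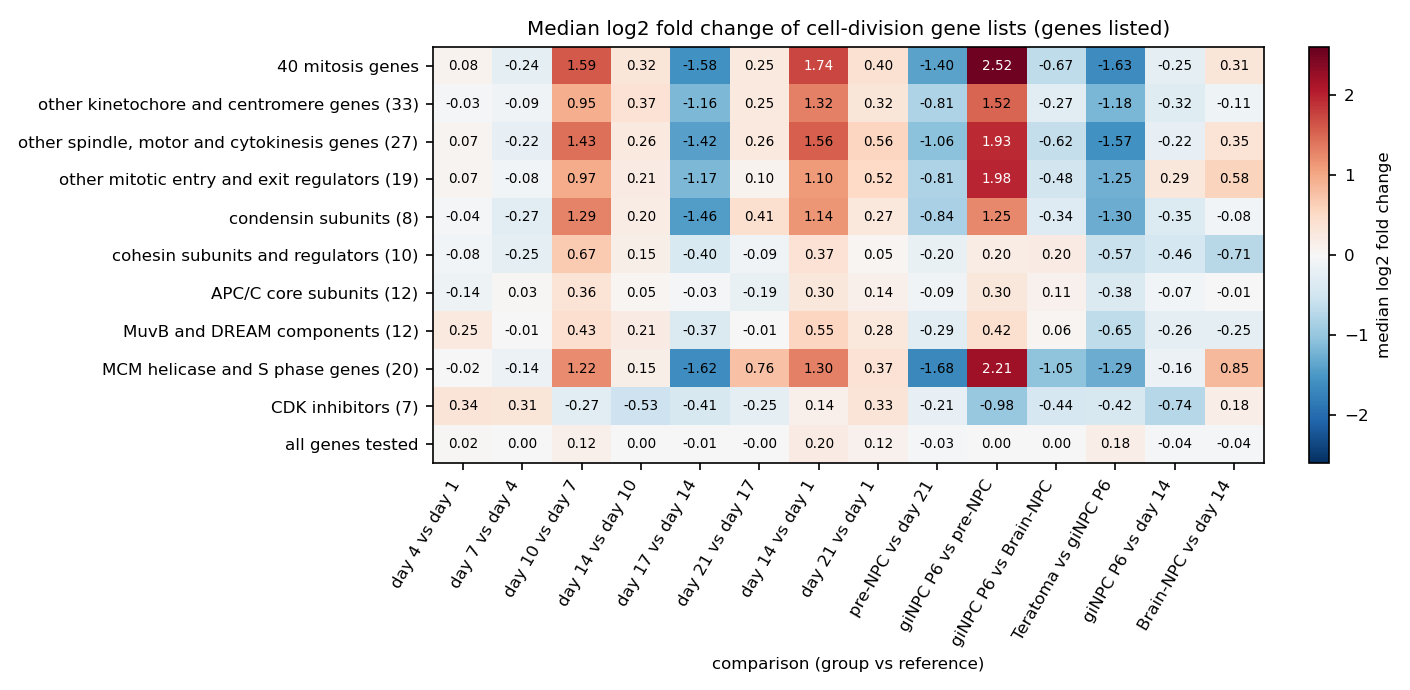
The colour and number are the median log2 fold change, on the log2(FPKM + 1) scale, of each list in each of 14 comparisons, with the number of genes in the list in brackets and all genes tested in the last row. The mitosis, spindle and S phase rows swing together, from 1.59, 1.43 and 1.22 at day 10 against day 7 to -1.58, -1.42 and -1.62 at day 17 against day 14. The APC/C core row stays between -0.38 and 0.36.

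Likeness was measured as Pearson's r of log2(FPKM + 1) over the 11 group means with the mean z-score of the members, or of the other members for a member, as a description. It was at least 0.9 for 38 of 40 members, highest for Kif2c, a microtubule-depolymerising kinesin, at 0.998, and lowest for Anln at 0.888, Bub1 at 0.894 and Spc25 at 0.904. Of 12521 other genes that reached an FPKM of 5 in some library, 158, or 1.26%, had an r of at least 0.9. The nearest were Dlgap5 at 0.993, Cdca2 at 0.991, the condensin subunit Ncaph at 0.986, Tacc3 at 0.985 and the repair gene Brca1 at 0.984. Cenpn, Ska3, Ska1, Rrm2, Kntc1, Pole, Mcm7, Rrm1 and Bora were among those that followed, at 0.974 to 0.981. The points are group means from the same libraries.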

How the data were processed

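Per the labels' protocols, RNA was enriched with oligo(dT) beads and sequenced in pairs on an Illumina HiSeq. The authors deposited, for each library, read counts per RefSeq transcript (HTSeq 0.6.0) and Cufflinks 2.2.1 FPKM tables. Both tools, TopHat2 2.0.12, edgeR and the mm9 genome are named in the submitters' processing notes, while the strand setting of the counting is not given in the sources used here.

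FPKM were summed per gene, and the 15659 genes that reached 1 FPKM in 2 or more libraries were tested, two-sided, with limma 3.58.1 (R 4.3.3, trend) on log2(FPKM + 1) in 1 fit of 22 libraries with a mean per group, which leaves 11 residual degrees of freedom. FPKM was preferred because 8 of the 40 members have several transcripts and all 8 have under 0.5 of the counts that their FPKM implies (Bub1, Ttk, Birc5, Spc25, Kif20a, Nusap1, Tpx2 and Ect2). The smallest library held 3084428 reads in transcripts. Counts were tested with edgeR 4.0.16 (quasi-likelihood, TMM) and DESeq2 1.42.0 as alternatives, beside a pseudocount of 0.1, no filter, TMM-scaled FPKM, a replicate block, the 4 libraries compared, leaving out each library, and the 32 members with 1 transcript. The tests were tested on simulated data.

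The members and lists were chosen with earlier results of these data known. Of 14 comparisons, 2 (giNPC P6 and Brain-NPC with day 14) and the split by number of transcripts were added after values were seen. Named were chosen representatives of each role, the 3 called members with the largest change in each comparison, members against the majority, the 3 least alike members and the 15 other genes most alike (1 of them is not reported here), and leading genes of the lists. Promoters are RefSeq sequences on GRCm38.p6. Each motif was searched on both strands.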

Additional observations from a re-analysis of the deposited data

How the results depend on the processing

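None of the called changes tallied here reversed. The median of the members from day 1 to day 4, where 0 were called, went from 0.08 to -0.06 with TMM-scaled FPKM. Of 364 recomputed counts of called members 340 stayed within 1.5 times. That tally includes many counts of 0 that stayed 0, such as members called lower from day 7 to day 10. Of 331 recomputed changes of single members 318 kept their call and 13 lost it. These covered 28 results, those of the called members with the largest changes in each comparison. Calls of the other members are not in that tally. Among those, Ccnb2, Mad2l1, Birc5, Incenp and Spc25 lost their call from day 7 to day 10 with TMM-scaled FPKM and with edgeR. Called lower from day 4 to day 7 was 1 with a pseudocount of 0.1, edgeR, edgeR without a filter or DESeq2 (0 to 1 leaving out a library). Called higher was 1 from day 10 to day 14 with edgeR, edgeR without a filter or DESeq2. From day 17 to day 21 it was 1 with a pseudocount of 0.1, edgeR or edgeR without a filter and 2 with DESeq2. From day 1 to day 21 it was 1 with TMM-scaled FPKM, edgeR, edgeR without a filter or DESeq2. For giNPC P6 against day 14 it was 0 when only the 4 libraries compared were fitted. Called lower there was 2 with a pseudocount of 0.1 or TMM, 0 with edgeR, and 0 to 2 leaving out a library. For Brain-NPC against day 14 it was 1 with edgeR without a filter. The cause was not tested.

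The counts on edgeR cover 35 members, since 5 with several transcripts had too few counts, and 38 without a filter. Leaving out each library gave 39 to 40 called higher on day 10 against day 7, 40 lower on day 17 against day 14, 33 to 36 lower in pre-NPC against day 21, 6 to 9 lower in giNPC P6 against Brain-NPC, and 38 to 40 lower in Teratoma against giNPC P6. A group left with 1 library is assumed to vary like the others.

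Replicate numbers showed no pairing over the groups as a whole. Over 55 pairs of groups the correlation of same-numbered deviations was -0.261 to 0.281 with a median of 0.0295. It was over 0.1 for 9 pairs, and these values cannot tell whether some of the groups were paired. With the replicate block the counts were the same in each comparison, such as 40 higher from day 7 to day 10 and 7 lower in giNPC P6 against Brain-NPC.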

Other observations

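CDK inhibitors, which hold cells out of the cycle, did not move as 1 group. From day 7 to day 10, when all 40 mitosis genes rose, 1 of 7 was called higher and 1 lower. Cdkn1b (p27) rose from 13.5 and 12.7 FPKM to 29.6 and 32.3 (log2 fold change 1.18 ± 0.14, limma adjusted p = 8.92e-06), and Cdkn2b (p15) fell from 76.2 and 75.7 to 35.8 and 36.1 (-1.06 ± 0.19, adjusted p = 0.000464). From day 14 to day 17, when all 40 mitosis genes fell, the 1 inhibitor called was Cdkn1a (p21), and it fell too, from 141 and 145 to 62.4 and 65.4 FPKM (-1.15 ± 0.28, adjusted p = 0.00403).

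In giNPC P6 against brain progenitors Cdkn1b was higher, at 58.0 and 61.1 against 19.7 and 17.8 FPKM (1.61 ± 0.14, adjusted p = 6.12e-07), and Cdkn1a lower, at 27.5 and 66.4 against 147 and 147 (-1.75 ± 0.28, adjusted p = 0.000162). The giNPC P6 libraries differed in Cdkn1a and in Cdkn2a (19.8 and 55.4 FPKM), with the lower values in replicate 1. Cdkn1c went the other way, at 3.57 and 2.00 FPKM. The same libraries differed in Xist, at 64.7 and 2.13 FPKM, and a link between the inhibitors and the mitosis genes was not tested.

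On day 17 the neural progenitor markers summed to 6830 to 6980 FPKM, a sum weighted to the most abundant genes of that list. The summed level of the mitosis genes was low, at 407 in both libraries. Gfap, the astrocyte filament gene, was at 223 and 242 FPKM on day 14 and 1170 and 1040 on day 17, while Nes, the progenitor filament nestin, went from 70.2 and 77.2 to 18 and 16.8. Sox2 was at 121 and 142 FPKM on day 17, against 178 and 156 on day 21 and 210 and 200 in pre-NPC, and 2 of 10 markers were called higher and 1 lower against day 14. These genes were chosen after their values were seen.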
